A study of Mus musculus with 3 samples.

Results

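Mitosis genes were followed in single splenic B cells as a set of 47 genes chosen by name, of the 32285 genes counted, and every one was found. In all, 3 mouse genotypes were compared, with 1 library each, all taken 10 days after 1 injection of sheep red blood cells (SRBC) into the peritoneum. WT mice carried no *BCL2* cassette. The 3′RR-*BCL2* library came from transgenic mice in which a human *BCL2* cassette with its own promoters, inserted at random, was driven by the 3′ regulatory region (3′RR) of the Ig heavy chain locus. The Igκ-*BCL2* library came from knock-in mice in which that cassette took the place of the Jκ segments of the Igκ light chain locus, so that a modified Igκ allele lacked Jκ. Both models had a mixed B6/129 background. The age of the mice and the number of mice per library are not given in the sources used here. The study describes the mice of both models as hemizygous in general, and not for these libraries by name. The labels call the WT cells sorted B cells and the other libraries whole tissue cells, whereas the methods of the study describe magnetic sorting of B cells for all 3. Levels are given as UMIs (unique molecular identifiers, each marking 1 captured RNA molecule) per 1000000 UMIs of the same cells, written UPM. T cell and macrophage markers (*Cd3* and *C1q* genes) were under 2 UPM in the kept cells of every library. Cells with 2 or more UMIs of these genes had been left out, so these values say nothing of the cells before that filter. Erythroid markers, which the filter did not use, stood at 8.64, 19.1 and 12.97 UPM (WT, 3′RR-*BCL2*, Igκ-*BCL2*). RNA of *Xist*, made from the inactive X chromosome, was high in 3′RR-*BCL2* only (1714 UPM against 0.157 in WT and 0.176 in Igκ-*BCL2*), so sex and genotype cannot be told apart in comparisons with this library.

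Mitosis runs in a fixed order. Cyclin B with CDK1 drives entry, Aurora and Polo kinases build the spindle, kinetochores tie chromosomes to microtubules, the checkpoint kinases hold back the anaphase promoting complex until all are attached, and the central spindle then guides division of the cell. RNA of many of these genes builds up in G2 and falls after division, so it marks cells on their way into mitosis. In the spleen after immunization, B cells divide rapidly in the germinal center (GC), above all as centroblasts of the dark zone, while centrocytes of the light zone and resting follicular, marginal zone and most plasma cells divide little.

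The libraries held 11269, 7579 and 7034 barcodes (WT, 3′RR-*BCL2*, Igκ-*BCL2*), with 62777659, 45539172 and 37433924 UMIs. After the cell filter of the paper, 9932, 6561 and 6243 cells remained, at a median of 5031, 5291 and 4838 UMIs. Between 15 and 24 barcodes were shared by any pair of libraries. Each cell was thinned to 2000 UMIs and was GC-marked if it held at least 2 of 10 GC markers, none of which is a mitosis gene. This marked 84 cells of WT, 630 of 3′RR-*BCL2* and 312 of Igκ-*BCL2*. GC genes that the mark did not use (*Bcl6*, *Fas*, *Hpse*, *Neil1*) stood at 511, 535 and 548 UPM in them, against 100, 146 and 132 in the remaining cells of no marked class. Genes of resting follicular B cells (*Fcer2a*, *Cd55*, *Klf2*, *Ighd*) were lower in GC-marked cells, at 835, 1100.2 and 1392 UPM against 3966, 3995 and 4144, and were thus least reduced in Igκ-*BCL2*. With 1 library per genotype no difference between genotypes can be tested. The 95% intervals below cover counting error only, and they are too narrow for RNA that a few cells hold. They say nothing of variation between mice.

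Mitosis gene RNA was concentrated in GC-marked cells of all 3 libraries, and by this mark its level there was highest in WT and lowest in Igκ-*BCL2*. The 47 members together reached 5072 UPM in WT GC-marked cells (4918 to 5229), 4405 for 3′RR-*BCL2* (4347 to 4465) and 2509 for Igκ-*BCL2* (2445 to 2574). In the cells that were neither GC-marked nor plasma-marked, termed cells outside the GC here, the sum was 760, 928 and 855. The log2 ratio of GC-marked cells to cells outside was therefore 2.74 in WT, 2.25 for 3′RR-*BCL2* and 1.55 for Igκ-*BCL2*. Each of the 47 members had a higher level in GC-marked cells than outside in each library. Among all genes with at least 20 UMIs in either class, 6665 of 12802, 6320 of 12082 and 6211 of 12145 did. Of the members with at least 20 UMIs in either class, 43 of 44 in WT, 46 of 47 in 3′RR-*BCL2* and, with the lowest count, 36 of 41 in Igκ-*BCL2* were at least 2-fold higher. Across all genes tested in the same way, 14.4%, 8.84% and 8.69% were. No member was at least 2-fold lower, where 13.5%, 9.51% and 10% of all genes were.

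**Figure D1:**
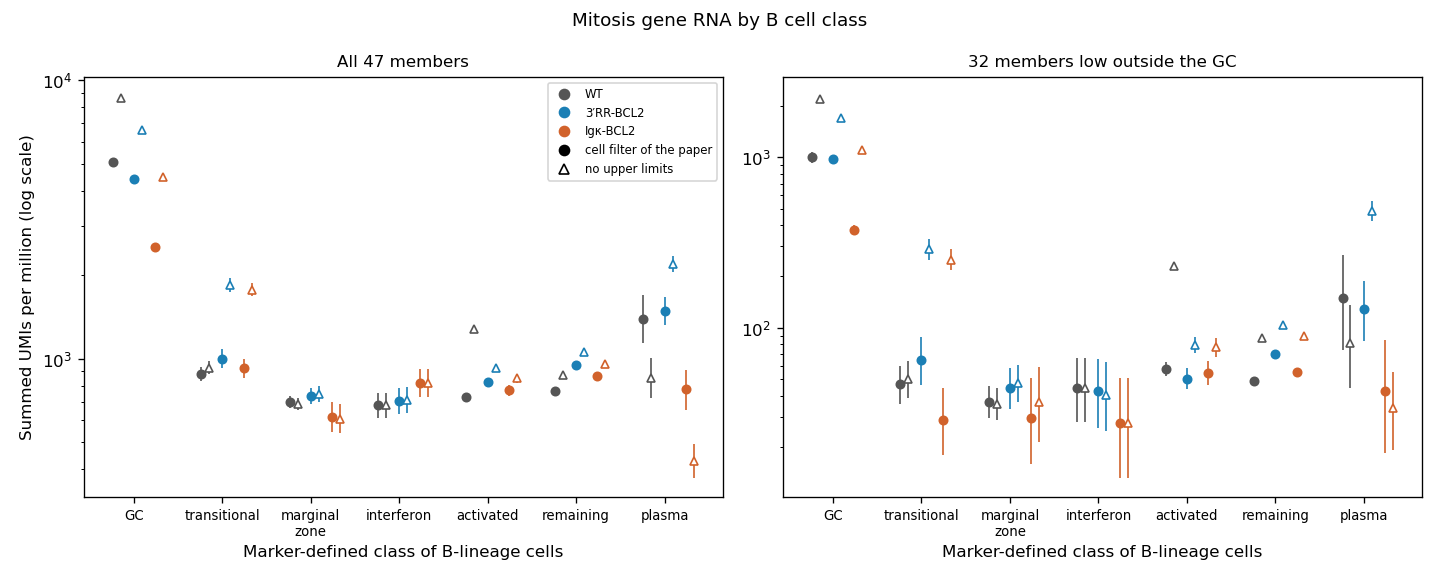
Summed UPM (log scale) of all 47 mitosis genes (left) and of the 32 with low levels outside the GC (right) in each marker-defined class, with WT in grey, 3′RR-*BCL2* in blue and Igκ-*BCL2* in orange. Filled circles use the cell filter of the paper, open triangles lift its upper limits (for plasma cells also the ribosomal minimum), and lines are 95% Poisson intervals. GC-marked cells stand above the classes outside the GC in every library, and the Igκ-*BCL2* value is the lowest of the GC values by both filters.

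Members abundant outside the GC also carried much of the sum in GC-marked cells. *Hmgb2*, a DNA-bending chromatin protein, held 37.9%, 34.3% and 38.0% of the members' UPM in GC-marked cells and 39.9%, 42.4% and 39.6% outside. Outside the GC it was followed by *Cenpa*, the histone variant of centromeres, *Smc4*, a subunit of the condensin complex, *Cks2*, a small partner of CDK1, and *Top2a*, the topoisomerase that untangles sister chromosomes. These 5 members held 81.0%, 79.6% and 82.4% of the sum outside and 54.2%, 55.1% and 65.8% in GC-marked cells. In WT, *Smc2* (22.5 UPM) stood slightly above *Top2a* (20.9) outside. The order in GC-marked cells was not the same. There *Mki67* came next after *Hmgb2* in WT and 3′RR-*BCL2* (464 and 328 UPM), with only 8.29 and 16.2 outside. *Stmn1* followed in WT, at 318 UPM against 15.9 outside. *Cenpa* differed least between the classes, at 220, 269 and 250 UPM in GC-marked cells and 171, 172 and 193 outside. For this reason, after the levels were seen, 32 members under 5 UPM outside the GC in every library were summed on their own. They include cyclin B, *Plk1*, *Aurka* and several motors of the spindle. Their sum in GC-marked cells was 1000 in WT (933 to 1071), 982 for 3′RR-*BCL2* (955 to 1011) and 373 for Igκ-*BCL2* (349 to 398), and outside it was 49.1, 66.7 and 53.4. The log2 ratio of GC-marked cells to those outside was 4.35, 3.88 and 2.80 with these members, which their choice by a low level outside raises.

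**Figure D2:**
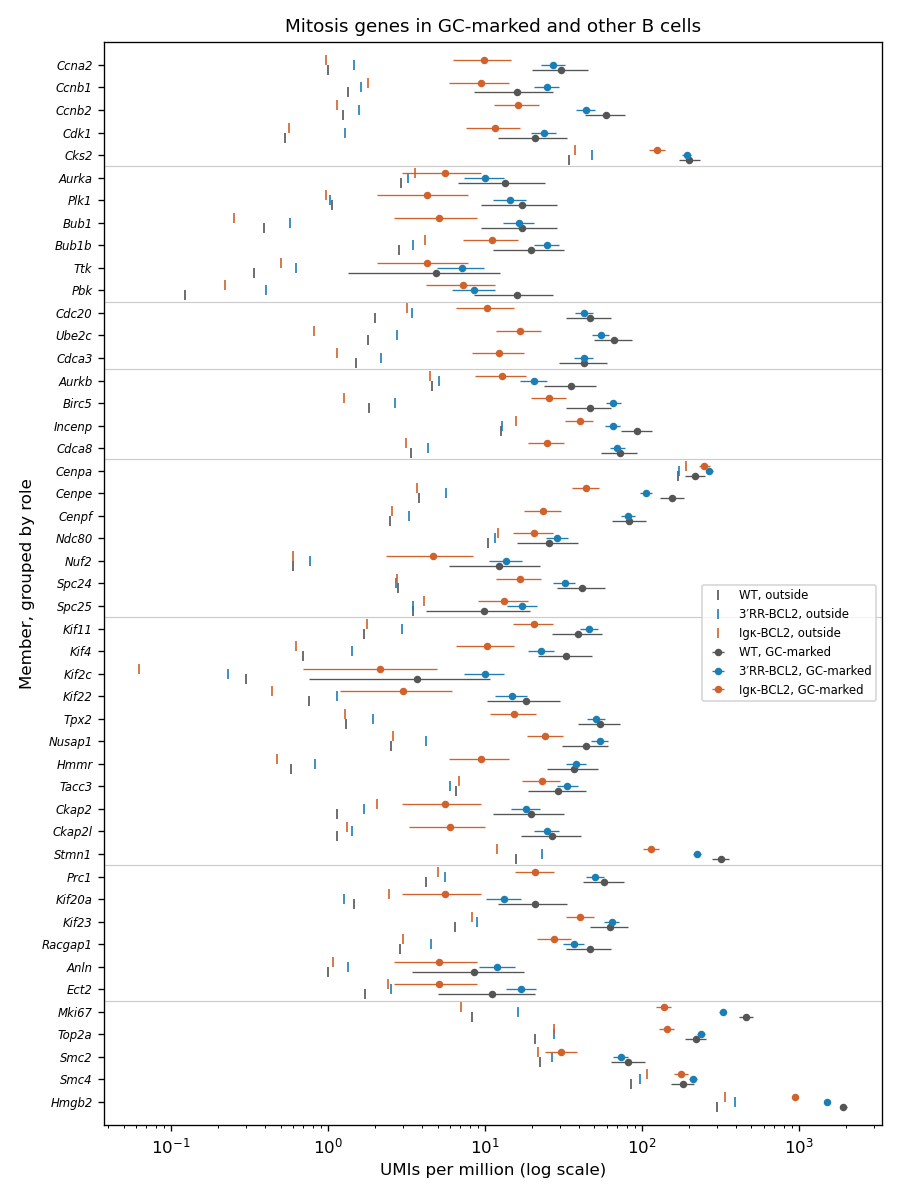
UPM (log scale) of each of the 47 mitosis genes, grouped by role, in GC-marked cells (circles with 95% Poisson intervals) and in cells outside the GC (vertical ticks), with WT in grey, 3′RR-*BCL2* in blue and Igκ-*BCL2* in orange. Every circle lies to the right of its own library's tick, and the ticks of *Hmgb2*, *Cenpa* and *Smc4* lie furthest to the right.

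Many of the members are known to be controlled in the cell cycle through promoter elements with the letters CCAAT and TTTGAA, bound by NF-Y and by the DREAM complex. These letters were searched on both strands (as CCAAT or ATTGG, and TTTGAA or TTCAAA, where matches of the first and second kind can share an end base) from 250 bases before to 50 bases after the start of each gene in the RefSeq promoters of GRCm38.p6. A promoter was found for 38 of the 47 members, with 40 promoters in all. CCAAT stood in 82.5% of these and in 37.4% of all 32851 promoters, TTTGAA in 80% against 17.9%, and both in 72.5% against 6.95%. At least 2 CCAAT stood in 57.5% against 11.5%. Of 48 other mitosis genes 39 had a promoter, with 45 promoters in all. CCAAT stood in 62.2% of these promoters, TTTGAA in 55.6% and both in 33.3%. The median G and C content was 58.8% in members and 52.7% in all promoters. A match is only a description of the letters. Promoters of 3 members with these letters and 1 without are shown, since they belong to members of different roles, with each match in capitals.
Ccnb2, chr9:70421505-70421804, minus strand: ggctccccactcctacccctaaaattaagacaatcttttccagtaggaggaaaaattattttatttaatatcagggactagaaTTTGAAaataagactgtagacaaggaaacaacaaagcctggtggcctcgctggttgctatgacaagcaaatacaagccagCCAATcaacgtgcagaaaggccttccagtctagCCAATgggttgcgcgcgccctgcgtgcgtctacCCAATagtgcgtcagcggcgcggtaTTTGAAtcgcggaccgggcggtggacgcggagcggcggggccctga
Cdc20, chr4:118437294-118437593, minus strand: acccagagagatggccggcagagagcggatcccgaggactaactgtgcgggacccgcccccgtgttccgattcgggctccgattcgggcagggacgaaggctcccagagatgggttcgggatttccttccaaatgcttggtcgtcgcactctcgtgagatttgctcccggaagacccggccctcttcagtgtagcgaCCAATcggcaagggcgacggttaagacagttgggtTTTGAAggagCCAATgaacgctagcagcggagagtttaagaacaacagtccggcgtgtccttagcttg
Top2a, chr11:99024140-99024439, minus strand: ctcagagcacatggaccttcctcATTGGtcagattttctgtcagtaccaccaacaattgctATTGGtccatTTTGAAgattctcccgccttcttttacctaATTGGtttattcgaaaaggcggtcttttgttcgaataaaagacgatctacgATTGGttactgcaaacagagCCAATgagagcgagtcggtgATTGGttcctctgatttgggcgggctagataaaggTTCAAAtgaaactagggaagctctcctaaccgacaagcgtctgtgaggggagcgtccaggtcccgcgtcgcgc
Nusap1, chr2:119618048-119618347, plus strand: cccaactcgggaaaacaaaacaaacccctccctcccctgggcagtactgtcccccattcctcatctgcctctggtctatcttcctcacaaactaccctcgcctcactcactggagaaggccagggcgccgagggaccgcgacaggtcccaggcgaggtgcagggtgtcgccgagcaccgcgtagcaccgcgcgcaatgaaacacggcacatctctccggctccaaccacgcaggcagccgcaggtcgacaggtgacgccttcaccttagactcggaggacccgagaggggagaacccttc
In *Ccnb2* the CCAAT matches began 87, 54 and 21 bases before the start, with equal spacing, and in *Cdc20* they began 53 and 8 bases before it. *Top2a* held 6 matches over both strands. The promoter of *Nusap1*, a spindle protein, held neither set of letters, although its RNA was 17.6-fold higher in GC-marked than in other cells of WT, a fold between those of *Top2a* (10.6) and *Ccnb2* (46.9).

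The comparison between genotypes within GC-marked cells asked whether the cells that carried the GC markers held the same level of mitosis RNA when *BCL2* was expressed from either construct. In Igκ-*BCL2* the summed level was below WT, with a log2 ratio of −1.02 (−1.07 to −0.96), and in 3′RR-*BCL2* the ratio was −0.20 (−0.25 to −0.15). For the 32 members that were low outside the GC the log2 ratios were −1.42 (−1.56 to −1.28) and −0.026 (−0.13 to 0.083). In Igκ-*BCL2* 45 of the 47 members lay below their WT level, and for 32 of them the counting interval lay wholly below 0. In 3′RR-*BCL2* 28 lay below and 19 above, and 39 of the intervals held 0. Of all genes with at least 20 UMIs in either library, 3596 of 8054 lay below WT in Igκ-*BCL2* and 4678 of 9411 in 3′RR-*BCL2*. The share of intervals off 0 among all genes is not given here. By the rule for a 2-fold difference, 35 members with at least 20 UMIs in WT or Igκ-*BCL2* could be judged, and 20 of them were lower in Igκ-*BCL2* and 0 higher, against 3.64% lower and 6.51% higher among all genes. The other 12 (*Aurka*, *Plk1*, *Bub1*, *Ttk*, *Pbk*, *Nuf2*, *Kif2c*, *Kif22*, *Ckap2*, *Kif20a*, *Anln*, *Ect2*) had too few UMIs. In 3′RR-*BCL2* all 47 could be judged, and 1 was at least 2-fold higher and 0 lower, against 4.85% and 2.74% of all genes. The median log2 ratio, with 0.5 UMIs added to each count, was −1.33 over the 35 members in Igκ-*BCL2* (0.080 over all genes) and −0.091 over the 47 in 3′RR-*BCL2* (0.0041 over all genes). Over all 47 members, with nothing added, it was −1.32 and −0.059. Set against each other, Igκ-*BCL2* was below 3′RR-*BCL2* in all 47 members, and in 4269 of 9426 among all genes. Of the members 30 were at least 2-fold lower and 0 higher, where 2.21% and 0.902% of all genes were. The 3′RR-*BCL2* and Igκ-*BCL2* ratios share the same 84 WT cells.

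The size of both differences depended on which cells were taken as GC cells. With at least 3 GC markers required, the 3′RR-*BCL2* sum lay above WT (log2 ratio 0.14), and the Igκ-*BCL2* ratio was −0.50 with 6 members at least 2-fold lower. Only 2 of the 10 markers were found in 44 of the 84 WT cells, 272 of the 630 3′RR-*BCL2* cells and 161 of the 312 Igκ-*BCL2* cells. The RNA content of GC-marked cells also differed, with a median of 10126.5 UMIs in WT, 7093 for 3′RR-*BCL2* and 7167 for Igκ-*BCL2*, and the 4 follicular genes were higher in those of the *BCL2* libraries (1100.2 and 1392 UPM against 835). The part of these differences in the mitosis values was not tested.

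**Figure D3:**
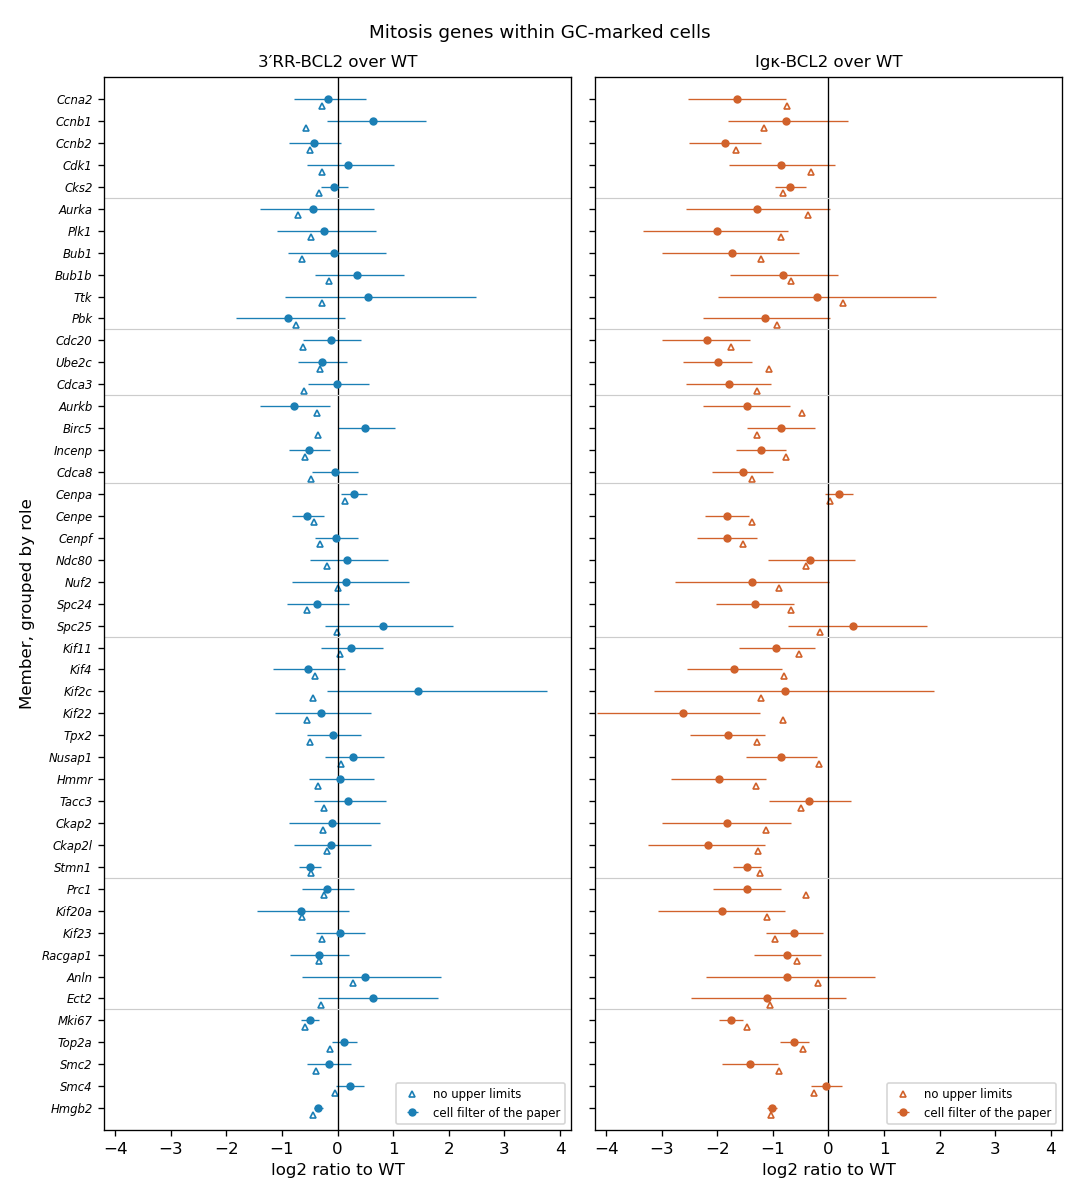
Log2 ratio to WT in GC-marked cells for each of the 47 mitosis genes, grouped by role, for 3′RR-*BCL2* (left, blue) and Igκ-*BCL2* (right, orange). Circles use the cell filter of the paper with 95% counting intervals, open triangles lift the upper limits, and the black line marks equal levels. The 3′RR-*BCL2* circles lie on both sides of the line, 28 below and 19 above, while in Igκ-*BCL2* 45 of 47 lie below it, with *Cenpa* and *Spc25* above.

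Among genes of mitotic entry, *Ccnb2*, a B-type cyclin, was at 58.9 UPM in WT GC-marked cells, 44.0 for 3′RR-*BCL2* and 16.2 for Igκ-*BCL2* (log2 ratios −0.42, interval −0.88 to 0.060, and −1.86, interval −2.51 to −1.21). *Ccnb1*, the main mitotic cyclin, rested on only 13 WT UMIs and was at 16.0, 24.9 and 9.41. It was among the 3 highest ratios of 3′RR-*BCL2* (0.64), but its interval of −0.19 to 1.59 held 0. *Cks2* was far more abundant, at 201, 193 and 125, and had a log2 ratio of −0.69 in Igκ-*BCL2*. As a group the 5 cyclin and CDK genes had log2 ratios of −0.065 and −0.93. The 6 mitotic kinases were scarce, with 72 UMIs in all in WT, and their group ratios were −0.12 and −1.23. *Plk1*, the Polo kinase of spindle assembly, was at 17.2, 14.5 and 4.28 UPM, the last from 10 UMIs. *Bub1*, a checkpoint kinase at the kinetochore, was at 17.2, 16.5 and 5.13, and its relative *Bub1b* at 19.6, 24.9 and 11.1. *Pbk*, a kinase of dividing cells, had one of the lowest 3′RR-*BCL2* ratios (−0.90, −1.82 to 0.12).

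The lowest group ratio to WT in Igκ-*BCL2* (−1.99, against −0.15 for 3′RR-*BCL2*) was in the 3 genes that act with the anaphase promoting complex, which marks cyclin B and securin for destruction. *Cdc20*, its activator in mitosis, was at 46.6 UPM in WT, 43.02 for 3′RR-*BCL2* and 10.3 for Igκ-*BCL2*, a log2 ratio of −2.18 to WT (−2.99 to −1.41). *Ube2c*, the E2 enzyme that works with the complex, was at 66.3, 54.6 and 16.7 (−1.99 in Igκ-*BCL2*). *Cdca3*, a substrate of the complex, was at 42.96, 42.8 and 12.4. All 3 thus lay in the same order, with WT and 3′RR-*BCL2* close together, and as a group they stood at −0.15 for 3′RR-*BCL2* and −1.99 for Igκ-*BCL2* (−2.39 to −1.59). The 4 members of the chromosomal passenger complex, which corrects faulty attachments through the kinase Aurora B, stood at −0.16 and −1.26. Its scaffold *Incenp* was at 93.3, 65.2 and 40.2 UPM and *Cdca8* (borealin) at 72.4, 69.9 and 24.8. The kinase itself, *Aurkb*, was among the lowest 3′RR-*BCL2* ratios, with 35.6 UPM in WT and 20.6 in 3′RR-*BCL2* (−0.79, −1.40 to −0.14).

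Kinetochore and centromere genes differed least as a group, at 0.0038 for 3′RR-*BCL2* and −0.56 for Igκ-*BCL2*, and *Cenpa* made up much of their RNA. Its log2 ratio was 0.29 for 3′RR-*BCL2* and 0.19 for Igκ-*BCL2*. *Cenpe*, the kinesin that moves chromosomes to the spindle equator, was at 156 UPM in WT, 107 for 3′RR-*BCL2* and 44.0 for Igκ-*BCL2*, with intervals below 0 in both (−0.54 and −1.82). *Spc25* of the Ndc80 complex had only 8 WT UMIs, and its ratios of 0.82 and 0.43 had intervals that held 0. *Smc4*, of the chromosome structure genes, was also close to WT in Igκ-*BCL2* (183, 212 and 178 UPM).

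Of the 11 spindle and motor genes all lay below WT in Igκ-*BCL2*, with a group ratio of −1.41 (−0.21 in 3′RR-*BCL2*). *Stmn1*, which destabilizes microtubules and is not limited to mitosis, was at 318, 225 and 115 UPM, and *Nusap1* at 44.2, 53.8 and 24.4. *Ckap2l*, a spindle protein, had one of the 3 lowest Igκ-*BCL2* ratios (27.0, 24.9 and 5.99 UPM, −2.17). *Kif2c*, a microtubule-depolymerizing kinesin, had the highest 3′RR-*BCL2* ratio (1.44) and was the 1 member past the 2-fold rule, but it rested on 3 UMIs in WT and its interval was −0.19 to 3.77. *Kif4* lies on the X chromosome, and was at 33.1, 22.8 and 10.3 UPM. The 6 genes of the central spindle and cytokinesis stood at −0.094 and −0.98, with *Kif23* at 62.6, 64.4 and 40.6, *Prc1*, which bundles its microtubules, at 57.7, 50.6 and 20.9 and *Kif20a* at 20.9, 13.3 and 5.56. Among the 5 genes of chromosome structure, at −0.28 and −0.99, *Mki67*, the proliferation marker Ki-67 that coats mitotic chromosomes, was at 464 UPM in WT (418 to 513), 328 for 3′RR-*BCL2* and 138 for Igκ-*BCL2* (−0.50 and −1.75). *Hmgb2* was at 1922, 1510 and 953, and *Top2a*, at 221, 240 and 145, lay above WT in 3′RR-*BCL2* (0.12), as did *Smc4* (0.22).

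The 48 other mitosis genes of a list without the members were compared in the same way. In Igκ-*BCL2* 7 of 28 that could be judged were at least 2-fold lower than WT and 1 higher (3.64% and 6.51% of all genes), with a median of −0.67. In 3′RR-*BCL2* 5 of 47 were lower and 3 higher (2.74% and 4.85% of all genes), with a median of −0.11. Over all 48, with nothing added, the medians were −0.89 and −0.012. The most abundant were *Lmnb1* of the nuclear lamina, with 209, 191 and 162 UPM, *Bub3*, a checkpoint protein, with 106, 104 and 74.4, and *Cdc25b*, the phosphatase that activates CDK1, with 85.9, 77.3 and 73.5. Genes of DNA replication, which precedes mitosis, were lower in both *BCL2* libraries. In 3′RR-*BCL2* 7 of 20 were at least 2-fold lower, against 2.74% of all genes (median −0.87, against 0.0041). In Igκ-*BCL2* 15 of 19 were, against 3.64% (median −1.66, against 0.080). Without the upper limits on genes and UMIs, 0 of 20 were at least 2-fold lower in 3′RR-*BCL2*, against 1.58% of all genes (median −0.58). In Igκ-*BCL2* 13 of 20 then were, against 4.31% (median −1.23).

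The share of GC-marked cells with mitosis RNA differed between libraries, and the level within such cells was partly set by the mark itself. At 2000 UMIs per cell, at least 3 of the 32 members were found in 19 of 84 WT cells (22.6%, exact interval 14.2 to 33.0), 77 of 630 3′RR-*BCL2* cells (12.2%, 9.77 to 15.04) and 11 of 312 Igκ-*BCL2* cells (3.53%, 1.77 to 6.22). Outside the GC the shares were 0.238%, 0.348% and 0.0692%. Within the GC-marked cells that held at least 3, the 47 members summed to 13911, 18128 and 19248 UPM. In the other GC-marked cells the sum was 3021, 1782 and 1705. The members that picked the cells are part of these sums, so no order of the libraries is drawn from them. The RNA was held by few cells. The 10% of GC-marked cells with the most UMIs of the 32 members held 52.1% of these UMIs in WT (9 cells), 86.0% for 3′RR-*BCL2* (63 cells) and 81.5% for Igκ-*BCL2* (32 cells), while 26.2%, 46.8% and 50.6% of the cells held none at full depth. A looser mark of at least 4 of all 47 members gave 46.4%, 27.5% and 18.6% of GC-marked cells, in the same order, but also 1.57%, 3.20% and 2.18% of cells outside. Of the GC-marked cells 8, 59 and 33 held exactly 4 members and 8, 115 and 69 held 3, so that this count is a range and not a division between kinds of cells.

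**Figure D4:**
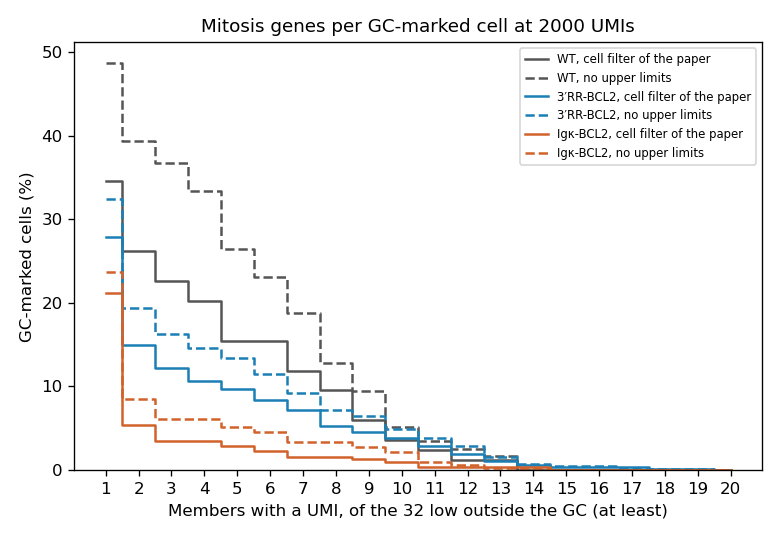
Percentage of GC-marked cells (vertical axis) that held UMIs of at least the number of members on the horizontal axis, of the 32 with low levels outside the GC, after thinning to 2000 UMIs per cell. Solid lines use the cell filter of the paper and dashed lines lift its upper limits, with WT in grey, 3′RR-*BCL2* in blue and Igκ-*BCL2* in orange. At 3 members the solid lines stand at 22.6%, 12.2% and 3.53%.

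GC-marked cells were further divided by genes that are not members. Cells with at least 3 of 20 replication genes (33, 93 and 29 cells) had mitosis sums of 7428, 12153 and 9351 UPM, and those without had 3382, 2641 and 1647. Of the cells with at least 3 of the 32 members, 57.9%, 66.2% and 72.7% also met this replication mark. Cells with *Jchain* RNA, the joining chain of secreted antibody, had 5219 UPM for 3′RR-*BCL2* and 3033 for Igκ-*BCL2*, above the 3342 and 1795 of cells without it. In WT the values were 5095 and 5047.

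Outside the GC the classes lay close together. Transitional cells, recent arrivals from the bone marrow, had 884, 999 and 922 UPM of the 47 members, marginal zone cells 697, 733 and 618, interferon-marked cells 680, 707 and 818, activated cells with *Myc* and ribosome assembly genes 725, 822 and 769, and the remaining cells 766, 952 and 866. The sum over all cells outside was above WT in both *BCL2* libraries, by a log2 ratio of 0.29 for 3′RR-*BCL2* (0.27 to 0.31) and 0.17 for Igκ-*BCL2* (0.15 to 0.19). In 3′RR-*BCL2* 41 of 45 members that could be judged lay above WT, as did 4590 of all 12894 genes (median 0.42, against −0.068 for all genes). Of the members 2 were at least 2-fold higher and 0 lower, where 1.62% and 1.85% of all genes were. In Igκ-*BCL2* 26 of 44 lay above, as did 6841 of all 12938 genes (median 0.056, against 0.017), with 0 at least 2-fold higher, where 3.5% of all genes were, and 1 lower, where 2.4% were. RNA of the 10 GC markers in cells outside moved the same way, at 17.9, 101 and 66.2 UPM, and 273, 570 and 366 of these cells held 1 GC marker. Its part in the difference was not tested. Cells with at least 3 of the 32 members numbered 23, 20 and 4 outside the GC, of which 18, 17 and 4 were in no marked class. Of the same cells 11 of 23, 4 of 20 and 0 of 4 held no UMI of any GC marker at full depth.

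The libraries also differed in how much of the mitosis RNA was held by GC-marked cells. GC-marked cells were 0.846%, 9.60% and 4.998% of all cells and held 8.71%, 39.4% and 17.6% of the UMIs of the 47 members. Of the 32 members they held 22.4%, 66.2% and 33.8%. Over all cells of a library the 47 members stood at 823, 1364 and 967 UPM (log2 ratios to WT 0.73 and 0.23). The order of the libraries was thus 3′RR-*BCL2*, Igκ-*BCL2*, WT over all cells, but WT, 3′RR-*BCL2*, Igκ-*BCL2* in GC-marked cells. A sum over all cells does not by itself separate the number of GC cells from the level in them. By the mark of at least 2 GC markers, GC-marked cells were more frequent in both *BCL2* libraries, while their summed level was below that of WT.

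**Figure D5:**
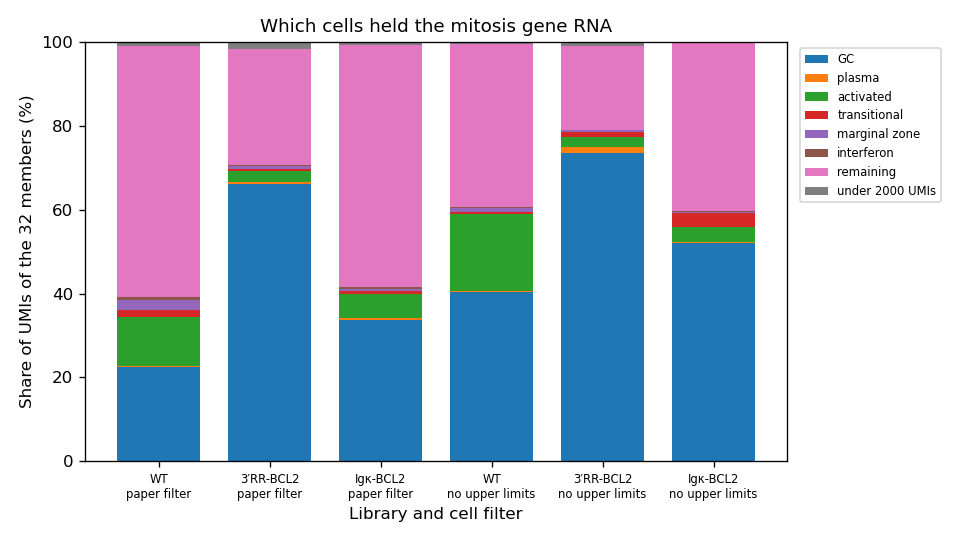
Percentage of the UMIs of the 32 mitosis genes with low levels outside the GC that each class of cells held, in each library, by the cell filter of the paper (3 bars on the left) and without its upper limits (3 bars on the right). Colours mark the classes and each bar adds to the whole. The GC share by the paper filter is 22.4% in WT, 66.2% for 3′RR-*BCL2* and 33.8% for Igκ-*BCL2*.

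Plasma-marked cells, with at least 5 of 13 plasma cell markers, were few, at 10, 32 and 28 cells, and were taken without upper limits, which plasma cells can exceed. Their 47 members summed to 854 UPM in WT (721 to 1003), 2188 for 3′RR-*BCL2* (2053 to 2329) and 430 for Igκ-*BCL2* (373 to 493). These values rested on few cells and on the mark. At least 4 members were found in 1 of 10, 4 of 32 and 0 of 28 cells. Taken as 3 cells of the total, the limit used here for a count of 0, the last allows a share of up to 10.7%. Immunoglobulin genes took 34.6%, 18.4% and 38.4% of their UMIs. When 6 markers were needed, the sums were 761, 521 and 351 UPM. By the cell filter of the paper the sums were 1391, 1480 and 775, from 7, 23 and 18 cells. The Igκ-*BCL2* value was the lowest each time, while the order of WT and 3′RR-*BCL2* changed with the mark.

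The upper limits of 4500 genes and 20000 UMIs removed many of the cells richest in mitosis RNA. They alone left out 107, 128 and 49 barcodes, with medians of 24345, 24932 and 23803 UMIs, and the 47 members summed to 7376, 7814 and 7618 UPM in these. At least 4 members were found in 56, 69 and 23 of them, and 33, 54 and 18 were GC-marked. Doublets were not removed, and their part in these barcodes was not tested. With these barcodes the GC sums were 8613, 6626 and 4500 UPM. The log2 ratios to WT were then −0.38 (−0.41 to −0.35) for 3′RR-*BCL2* and −0.94 (−0.97 to −0.90) for Igκ-*BCL2*. For 3′RR-*BCL2* 43 of 47 members lay below WT without the limits, as did 4588 of 9801 among all genes. Of these members 0 were at least 2-fold lower (1.58% of all genes) or higher (3.89%). For Igκ-*BCL2* 45 members lay below WT, as did 3748 of 8672 among all genes. Here 20 members were at least 2-fold lower (4.31% of all genes) and 0 higher (7.36%). Against 3′RR-*BCL2*, 4 members were at least 2-fold lower in Igκ-*BCL2* (1.23% of all genes) and 0 higher (0.948%), where 30 were with the limits. For the 32 members the ratios outside the GC changed sign without the limits, from 0.44 to −0.039 for 3′RR-*BCL2* and from 0.12 to −0.20 for Igκ-*BCL2*. At least 3 of the 32 members were found in 36.8% of 117 WT, 16.2% of 684 3′RR-*BCL2* and 6.06% of 330 Igκ-*BCL2* GC-marked cells, the same order as with the limits.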

How the data were processed

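The deposited files hold whole-number UMI counts of genes in called cell barcodes, which the authors made with Cell Ranger 6.1.1 according to the submitters' processing notes, which name the mm10 and hg38 builds, for 3 libraries of 10x 3′ single-cell RNA-seq. The cell filter of the paper asked for 800 to 4500 genes, no more than 20000 UMIs, a mitochondrial share up to 8% and a ribosomal protein share of 10% or above, and here also under 2 UMIs of *Cd3* or *C1q* genes. The last limit is not in the paper's text. Doublets were not removed. Each cell was thinned (fixed seed) to 2000 UMIs, and classes were set in order of plasma (5 of 13 markers), GC (2 of 10), transitional (2 of 5), marginal zone (2 of 7), interferon (3 of 11) and activated (3 of 12); cells under 2000 UMIs (178, 165 and 135) were in no class and counted only in totals over all cells. Levels are UMIs of a class per 1000000 of its UMIs, at full depth. They are compared between genes only as 3′ counts, where each molecule counts once whatever its length. Intervals at 95% are exact Poisson for levels, conditional binomial for ratios and Clopper-Pearson for shares (scipy 1.17.1, numpy 2.4.6, pandas 2.3.3), and ratio intervals were checked on simulated counts. The simulated counts varied by Poisson counting error only, so this check does not cover RNA that a few cells hold. Counts of members past a fold of 2 used genes with at least 20 UMIs in either group. There were no replicates, so no test was made.

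The members and lists were chosen with earlier results of these data known. Genes named are the 2 with the most UMIs of each role, the 3 highest and 3 lowest ratios of each *BCL2* library, the 5 highest in remaining cells, *Mki67*, *Ccnb1* and *Plk1*, and the 3 most abundant of the other mitosis genes. *Kif4*, *Aurka* and genes in the list of untested members were named after their values were seen, and so was the choice of the 32 members and of at least 3 of them. Alternatives changed the cell filter, marks, thinning depth, totals, minimum and members. Coordinates are those of GRCm38. Some marker genes, and the division of GC-marked cells by zone, are not reported here.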

Additional observations from a re-analysis of the deposited data

Results flagged for a closer look

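By the mark of at least 2 GC markers, the summed level of the 47 mitosis genes in the *BCL2* libraries lay on the other side of WT outside the GC than in GC-marked cells. With at least 3 GC markers required, the 3′RR-*BCL2* level lay above WT both outside the GC and in GC-marked cells. With at least 2, the log2 ratio to WT for 3′RR-*BCL2* was 0.29 outside the GC and −0.20 in GC-marked cells, and for Igκ-*BCL2* it was 0.17 and −1.02. The difference between the classes was not tested, since there was 1 library per genotype. Without the upper limits on genes and UMIs the ratios outside were 0.17 and 0.053, and for the 32 members with low levels outside the GC they were −0.039 and −0.20. RNA of the GC markers outside the GC was 17.9 UPM in WT, 101 for 3′RR-*BCL2* and 66.2 for Igκ-*BCL2*, and its part was not tested.

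Barcodes that the upper limits removed, which entered only the values given as without those limits, held mitosis RNA above the level of the cells outside the GC. The 47 members summed to 7376 UPM in WT, 7814 for 3′RR-*BCL2* and 7618 for Igκ-*BCL2*. Of these barcodes 33 of 107, 54 of 128 and 18 of 49 were GC-marked, and the 4 follicular genes stood at 1054, 1268 and 1128 UPM in them.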

How the results depend on the processing

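The WT library held only 84 GC-marked cells, so the ratios to WT had the least depth, and 12 members could not be judged for a 2-fold difference between Igκ-*BCL2* and WT. No paired analysis was possible because each genotype had 1 library, all numbered 1, and no result came from a test. Of the alternative values, 89 stayed within the counting interval of the reported value (for numbers of members, within 1.5 times of it), 119 did not and 1 changed sign, the log2 GC ratio of 3′RR-*BCL2* to WT with at least 3 GC markers. The log2 GC ratio of Igκ-*BCL2* to WT lay below 0 under each alternative run. The 32 low members were chosen after seeing the data. Unless a value's own construction (fewer cells or members) shows it, the cause was not tested. Without upper limits, the log2 GC ratios to WT were −0.38 (3′RR-*BCL2*) and −0.94 (Igκ-*BCL2*), the log2 ratios outside were 0.17 (3′RR-*BCL2*) and 0.053 (Igκ-*BCL2*) and the log2 ratios over all cells were 0.71 (3′RR-*BCL2*) and 0.10 (Igκ-*BCL2*). Here the log2 GC ratios to other cells were 3.22 (WT), 2.68 (3′RR-*BCL2*) and 2.23 (Igκ-*BCL2*), the GC shares of UMIs were 22.8% (WT), 52.4% (3′RR-*BCL2*) and 29.5% (Igκ-*BCL2*) and the share of GC-marked cells with at least 4 members was 32.6% (3′RR-*BCL2*). Here the number of members 2-fold higher was 0 (3′RR-*BCL2*). With at least 500 genes, at most 15% mitochondrial UMIs and no other limit, the log2 GC ratios to WT were −0.33 (3′RR-*BCL2*) and −0.88 (Igκ-*BCL2*), the log2 ratios outside were 0.16 (3′RR-*BCL2*) and 0.044 (Igκ-*BCL2*) and the log2 ratio over all cells was 0.098 (Igκ-*BCL2*). Here the log2 GC ratios to other cells were 3.19 (WT), 2.70 (3′RR-*BCL2*) and 2.27 (Igκ-*BCL2*), the GC shares of UMIs were 23.5% (WT), 53.1% (3′RR-*BCL2*) and 30.8% (Igκ-*BCL2*) and the share of GC-marked cells with at least 4 members was 33.2% (3′RR-*BCL2*). Here the number of members 2-fold higher was 0 (3′RR-*BCL2*). With at least 3 GC markers, the log2 GC ratios to WT were 0.14 (3′RR-*BCL2*) and −0.50 (Igκ-*BCL2*), the log2 ratio outside was 0.44 (3′RR-*BCL2*) and the log2 GC ratios to other cells were 2.51 (WT), 2.21 (3′RR-*BCL2*) and 1.85 (Igκ-*BCL2*). Here the GC shares of UMIs were 3.68% (WT), 25.4% (3′RR-*BCL2*) and 11% (Igκ-*BCL2*), the share of GC-marked cells with at least 4 members was 31.8% (3′RR-*BCL2*) and the number of members 2-fold lower was 6 (Igκ-*BCL2*). Here the numbers of members 2-fold higher were 8 (3′RR-*BCL2*) and 1 (Igκ-*BCL2*). With at least 3 GC markers at full depth, the log2 GC ratios to WT were −0.50 (3′RR-*BCL2*) and −1.16 (Igκ-*BCL2*), the log2 ratios outside were 0.17 (3′RR-*BCL2*) and 0.14 (Igκ-*BCL2*) and the log2 GC ratios to other cells were 2.83 (WT) and 2.16 (3′RR-*BCL2*). Here the GC shares of UMIs were 11.3% (WT), 48.7% (3′RR-*BCL2*) and 23.6% (Igκ-*BCL2*), the number of members 2-fold lower was 3 (3′RR-*BCL2*) and the number of members 2-fold higher was 0 (3′RR-*BCL2*). With thinning to 1000 UMIs, the log2 GC ratio to WT was −0.76 (Igκ-*BCL2*), the log2 ratio outside was 0.53 (3′RR-*BCL2*) and the log2 GC ratios to other cells were 2.80 (WT), 2.08 (3′RR-*BCL2*) and 1.86 (Igκ-*BCL2*). Here the GC shares of UMIs were 5.36% (WT), 22.5% (3′RR-*BCL2*) and 11.6% (Igκ-*BCL2*), the plasma levels (UPM) were 2678 (WT) and 510 (3′RR-*BCL2*) and the numbers of members 2-fold lower were 1 (3′RR-*BCL2*) and 9 (Igκ-*BCL2*). Here the number of members 2-fold higher was 0 (3′RR-*BCL2*). With thinning to 4000 UMIs, the log2 GC ratio to WT was −0.37 (3′RR-*BCL2*), the log2 ratios outside were 0.15 (3′RR-*BCL2*) and 0.13 (Igκ-*BCL2*) and the log2 GC ratios to other cells were 2.68 (WT), 2.15 (3′RR-*BCL2*) and 1.51 (Igκ-*BCL2*). Here the GC shares of UMIs were 9.52% (WT), 41.5% (3′RR-*BCL2*) and 20.6% (Igκ-*BCL2*), the plasma levels (UPM) were 3318 (WT), 3229 (3′RR-*BCL2*) and 1904 (Igκ-*BCL2*) and the number of members 2-fold lower was 1 (3′RR-*BCL2*). Here the number of members 2-fold higher was 0 (3′RR-*BCL2*). With totals without immunoglobulin, ribosomal protein and mitochondrial genes, the log2 ratio outside was 0.14 (Igκ-*BCL2*), the log2 ratio over all cells was 0.21 (Igκ-*BCL2*) and the plasma levels (UPM) were 1729 (WT), 3725 (3′RR-*BCL2*) and 915 (Igκ-*BCL2*). With a minimum of 50 UMIs, the number of members 2-fold lower was 9 (Igκ-*BCL2*) and the number of members 2-fold higher was 0 (3′RR-*BCL2*). With a fold of 1.5, the number of members at least 1.5-fold lower was 3 (3′RR-*BCL2*) and the number of members at least 1.5-fold higher was 3 (3′RR-*BCL2*). With at least 3 of 47 members, the shares of GC-marked cells with that many of them were 45.7% (3′RR-*BCL2*) and 40.7% (Igκ-*BCL2*). With at least 6 of 47 members, the shares of GC-marked cells with that many of them were 26.2% (WT), 14.4% (3′RR-*BCL2*) and 5.77% (Igκ-*BCL2*). Without *Stmn1*, *Hmgb2*, *Smc2* and *Smc4*, the log2 GC ratio to WT was −0.11 (3′RR-*BCL2*), the log2 ratio outside was 0.22 (3′RR-*BCL2*) and the log2 ratio over all cells was 0.80 (3′RR-*BCL2*). Here the log2 GC ratios to other cells were 2.95 (WT), 2.63 (3′RR-*BCL2*) and 1.72 (Igκ-*BCL2*) and the plasma levels (UPM) were 517 (WT), 1252 (3′RR-*BCL2*) and 215 (Igκ-*BCL2*). With the cell filter of the paper for plasma cells, the plasma levels (UPM) were 1391 (WT), 1480 (3′RR-*BCL2*) and 775 (Igκ-*BCL2*). With at least 4 plasma markers, the plasma levels (UPM) were 3619 (WT), 4303 (3′RR-*BCL2*) and 1685 (Igκ-*BCL2*). With at least 6 plasma markers, the plasma levels (UPM) were 521 (3′RR-*BCL2*) and 351 (Igκ-*BCL2*). With the 32 low members, the log2 GC ratios to WT were −0.026 (3′RR-*BCL2*) and −1.42 (Igκ-*BCL2*), the log2 ratios outside were 0.44 (3′RR-*BCL2*) and 0.12 (Igκ-*BCL2*) and the log2 ratio over all cells was 1.52 (3′RR-*BCL2*). Here the log2 GC ratios to other cells were 4.35 (WT), 3.88 (3′RR-*BCL2*) and 2.80 (Igκ-*BCL2*), which the choice of members by a low level outside raises. With at least 3 of the 32 low members, the shares of GC-marked cells with that many of them were 22.6% (WT), 12.2% (3′RR-*BCL2*) and 3.53% (Igκ-*BCL2*).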

Other observations

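Activated cells outside the GC, marked by *Myc* and genes of ribosome assembly, held 57.7, 50.4 and 54.2 UPM of the 32 members in WT, 3′RR-*BCL2* and Igκ-*BCL2* by the cell filter of the paper. Without its upper limits the WT value was 231, while the others were 79.2 and 76.8. The 23 WT barcodes that this added held 6380 UPM of all 47 members, and the 19 and 7 added in the *BCL2* libraries held 1759 and 1900. Transitional cells went the other way. Without the limits their 32 members stood at 50.1 UPM in WT, 288 for 3′RR-*BCL2* and 251 for Igκ-*BCL2*, where only 1, 2 and 2 barcodes had been added. Cells under 2000 UMIs, which are in no class, held 996, 2277 and 967 UPM of the 47 members and 94.1, 856 and 250 of the GC markers. The 23, 20 and 4 cells outside the GC with at least 3 of the 32 members held 439, 865 and 1572 UPM of the GC markers. Their 47 members, which include those that picked the cells, summed to 12842, 11299 and 20318 UPM.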
